A study of Mus musculus with 28 samples.

Results

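The clustered protocadherins are cell-surface adhesion proteins encoded by 3 neighbouring gene clusters, alpha, beta and gamma, on mouse chromosome 18. Members were the protein-coding genes of the GENCODE annotation whose symbol begins with Pcdha, Pcdhb or Pcdhg followed by a letter or digit, which gave 57 of 55365 annotated genes. There were 14 alpha members from Pcdha1 (36930184 to 37187661, plus strand, mm10) to Pcdhac2, 22 beta members from Pcdhb1 to Pcdhb22 (37517871 to 37524479) and 21 gamma members from Pcdhga1 to Pcdhgc5 (37819513 to 37841873). All are transcribed from the plus strand. The annotation gives 2 genes the symbol Pcdha11. The upstream one, which starts at 37005203, holds the position of Pcdha10 in RefSeq and is called Pcdha10 here.

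The mark examined is N6-methyladenosine (m6A), a methyl group on adenosines of mRNA. In m6A-seq an antibody pulls down (IP) the RNA fragments that carry it, and a methylated stretch appears as a peak of sequenced reads. Libraries came from the bulk cerebellum and cerebrum of P0 and P7 mice, all of them first-generation hybrids of PWK/PhJ (PWK) with C57BL/6J (C57) mice. F1i mice had a PWK mother and F1r mice a C57 mother. The peak lists of 14 IP libraries were used: cerebellum gave 2 at P0 (both male) and 4 at P7, and cerebrum gave 4 at either age, with a male and a female library of both crosses wherever there were 4. No allele or agent was introduced in any group, and the sources used here do not say whether a library holds 1 animal or several, so p-values measure the spread between these libraries. By the batch column of the study's sample sheet, all cerebellum libraries formed one m6A-seq batch and all cerebrum libraries another, and no comparison of tissues can be told apart from one of batches.

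In the alpha and gamma clusters each member has its own long first exon, the variable exon, which encodes the extracellular cadherin repeats, the membrane span and the start of the intracellular part. It is spliced to 3 constant exons that all members of the cluster share and that encode the common cytoplasmic end. Beta members consist in the main of a single long exon and have no constant exons. Neurons choose promoters of these exons in a combinatorial way, which gives cells different sets of surface proteins, and the clusters are known for dendrite self-avoidance, axon wiring and neuronal survival, whereas the C-type members Pcdhac1, Pcdhac2, Pcdhgc3, Pcdhgc4 and Pcdhgc5 are used more evenly between neurons.

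The 14 lists held 280967 peaks, 16687 to 26208 per library, and relative depth (mean 1) ran from 0.563 to 1.57. The highest overlap of any 2 lists was a Jaccard index of 0.811. The cerebrum marker Emx1 had a peak in all 8 cerebrum libraries and 0 of 6 cerebellum libraries, and of the 8 cerebrum markers 4 to 5 had a peak in a cerebellum library and 8 in a cerebrum library. Of the 8 cerebellum markers, 5 to 7 had a peak in a cerebellum library and 2 to 3 in a cerebrum library, with En2 in all 6 and 0 of 8 and Gabra6 at 0 in all libraries. Lists of markers of oligodendrocytes, astrocytes, microglia, endothelium and neurons had 0 genes past Fisher's exact test of presence between tissues after adjustment and 2 at an unadjusted p under 0.05. Among these was the endothelial Pecam1, with a peak in 0 of 6 cerebellum and 6 of 8 cerebrum libraries, and the part of such cells in the results was not tested. The P7 cerebrum F1r library labelled male had 7 peaks in Xist and 0 in Kdm5d, against its label. The one labelled female had 3 in Xist and 1 in Kdm5d, which left its sex unclear. The other female and male libraries had 4 to 7 and 0 to 2 peaks in Xist, and 0 and 0 to 4 in Kdm5d. Sexes were therefore not compared, and results are given with and without these 2 libraries where they changed. A peak needs expression of the gene as well as methylation, and in bulk tissue fewer cells of a type and less RNA per cell cannot be told apart.

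Nearly every clustered protocadherin carried m6A in its variable exon in every library. A peak was counted for a member when its summit lay in the variable exon on the same strand. All cerebrum libraries and both P0 cerebellum libraries had a variable-exon peak in 56 of the 57 members. The P7 cerebellum libraries had one in 53 (female F1i), 55 (female F1r), 55 (male F1i) and 54 members (male F1r). A peak was present in all 14 libraries in 53 members, 93.0%, whereas 55.4% of the 11305 genes with any exonic peak had one in all libraries. Pcdhb1, the first gene of the beta cluster (37264938 to 37267525), was the exception and had 0 peaks in all 14 libraries. The level of its transcript was not analysed here, so absence of a call cannot be read as absence of m6A.

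**Figure D1:**
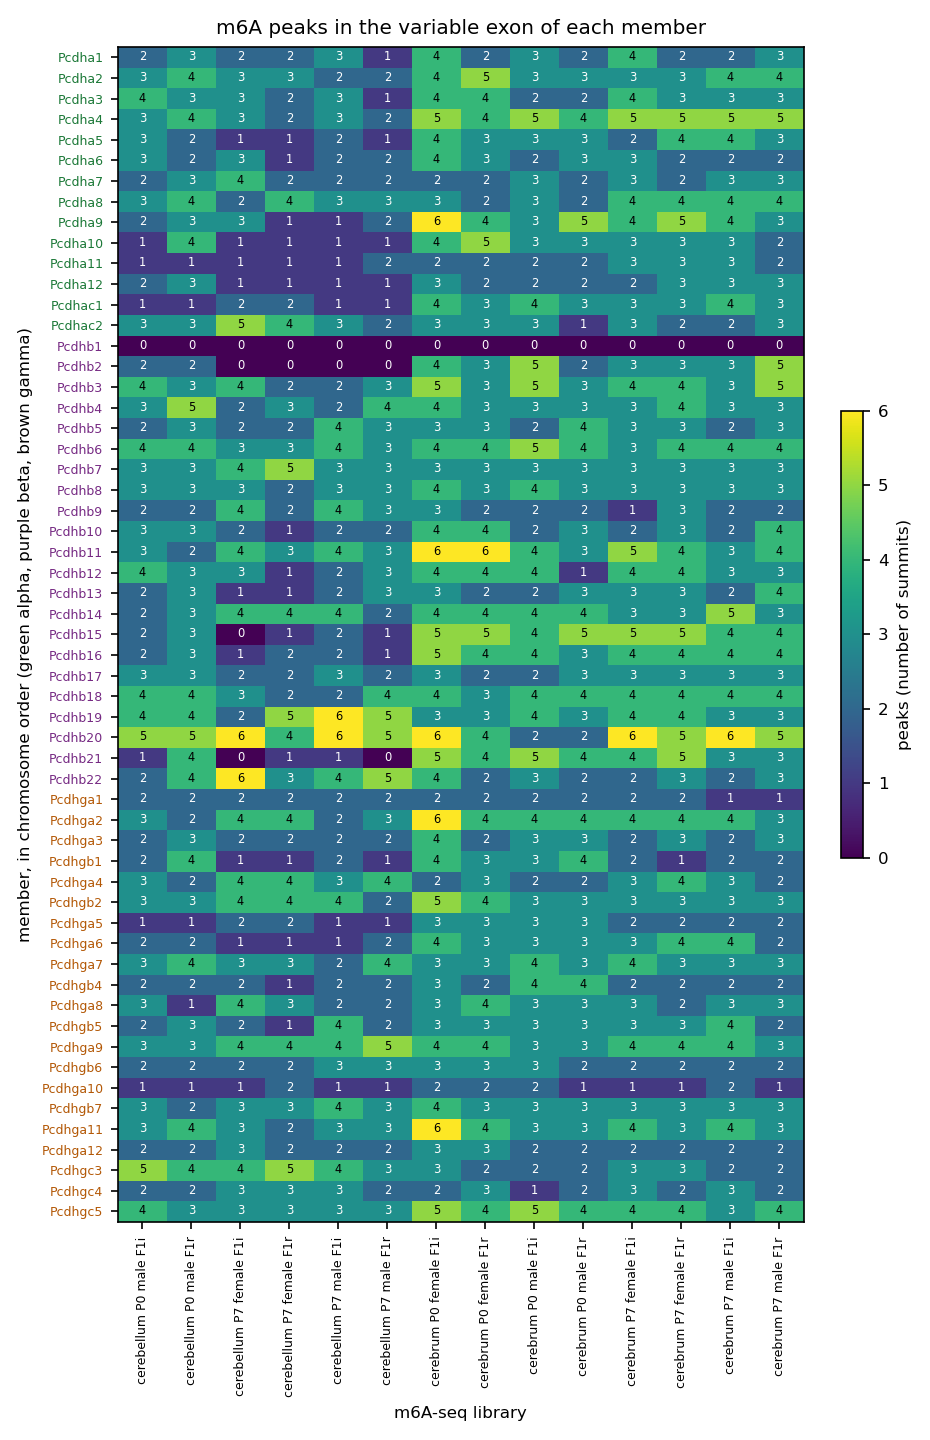
Number of m6A peaks in the variable exon of each member (rows, in chromosome order) in each of the 14 libraries (columns, by tissue, age, labelled sex and cross). Counts run from 0 to 6, Pcdhb1 is at 0 throughout, and the other zeros are in Pcdhb2, Pcdhb15 and Pcdhb21 in P7 cerebellum.

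Presence of a peak in the exons of a gene was compared between tissues with Fisher's exact test, adjusted over the 5044 genes with a peak in some but not all libraries. Among all genes tested, 7.47% were called more often in cerebrum and 3.33% more often in cerebellum. The members that could be tested were 3, and 0 passed, with 1 at an unadjusted p under 0.05. Pcdhb2 had a peak in 2 of 6 cerebellum libraries and 8 of 8 cerebrum libraries (two-sided Fisher's exact test, p = 0.015, adjusted p = 0.0853). Its strongest peak had a fold enrichment, the pileup of IP reads over the local background, of 6.66 and 8.98 in the P0 cerebellum libraries and no call in the 4 P7 cerebellum libraries. In cerebrum the fold of Pcdhb2 was 7.17 to 10.0 at P0 and 7.0 to 12.8 at P7. Pcdhb2 was thus among the weaker members wherever it was called, and 1 of its 2 cerebellum values lay below the lowest cerebrum value. Pcdhb15 was missing in the P7 cerebellum female F1i library alone (Fisher's exact test, adjusted p = 0.648). Pcdhb21 was missing in that library and in the P7 cerebellum male F1r library (Fisher's exact test, adjusted p = 0.373).

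By the −log10 q of their best peak, the members ranked highest were the C-type members Pcdhgc4, Pcdhgc3 and Pcdhac2. Inside each list peaks were ranked by the −log10 q of the peak caller, and the best variable-exon peak of Pcdhgc4, a gamma C-type member needed for the survival of certain neurons, lay on average at the 98.7th percentile of all peaks. Its fold was 45.0 and 44.9 in P0 cerebellum, 44.2, 47.9, 37.7 and 37.9 in P7 cerebellum, 71.7, 100.6, 91.2 and 105 in P0 cerebrum and 77.8, 92.4, 81.3 and 73.1 in P7 cerebrum. The raw folds of the tissues did not overlap, but the folds of all regions were higher in cerebrum, and relative to the median region of each library the log2 difference of cerebrum minus cerebellum was 0.16 ± 0.13 (SE, limma adjusted p = 0.316). Pcdhgc3 was at the 94.7th percentile on average, with a fold of 11.7 to 18.6 (median 15.7) in cerebellum and 24.2 to 43.9 (median 33.9) in cerebrum. Pcdhac2 was at a mean percentile of 94.1, with 26.5 to 44.1 (median 37.7) and 43.0 to 65.6 (median 54.2). The next members by this rank were Pcdhb20 (89.5th), Pcdhga2 (88.0th), Pcdha1 (87.9th), Pcdhga8 (86.8th) and Pcdhga7 (83.6th), with highest folds between 62.1 and 102. By fold the order differed, since Pcdhga2 had 26.2 to 35.9 in cerebellum, above the values of Pcdhgc3. The remaining C-type members stood lower, Pcdhgc5 at the 54.5th and Pcdhac1 at the 42.6th percentile. The fold of Pcdhac1 was 4.44 to 10.8 in cerebellum and 14.6 to 19.9 in cerebrum.

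A member carried several peaks as a rule. The median number of variable-exon peaks per member and library was 2.54 in the alpha, 3.14 in the beta and 2.71 in the gamma cluster, or 1.01, 0.804 and 1.04 per kb of exon, since some beta exons have long untranslated ends. The highest mean was that of Pcdhb20 with 4.79 peaks and the lowest above 0 that of Pcdhga10 with 1.36. Across libraries the summed number over all members was 146 and 161 in P0 cerebellum and 147, 130, 144 and 133 in P7 cerebellum. It was 212, 179, 175 and 160 in P0 cerebrum and 177, 178, 171 and 168 in P7 cerebrum. All cerebrum libraries but the P0 male F1r library lay above the highest cerebellum library. Cerebellum libraries had a mean of 143.5 ± 11.1 peaks (SD, n = 6) and cerebrum libraries one of 177.5 ± 15.3 (SD, n = 8), a difference of 34 peaks. Cerebrum lists were longer as a whole, however. As a share of each list the peaks were 0.817% ± 0.0636 in cerebellum and 0.817% ± 0.0885 in cerebrum. With every list reduced to its 16687 strongest peaks the difference was 8.71 peaks (pooled SD between libraries 10.9), which was not tested.

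**Figure D2:**
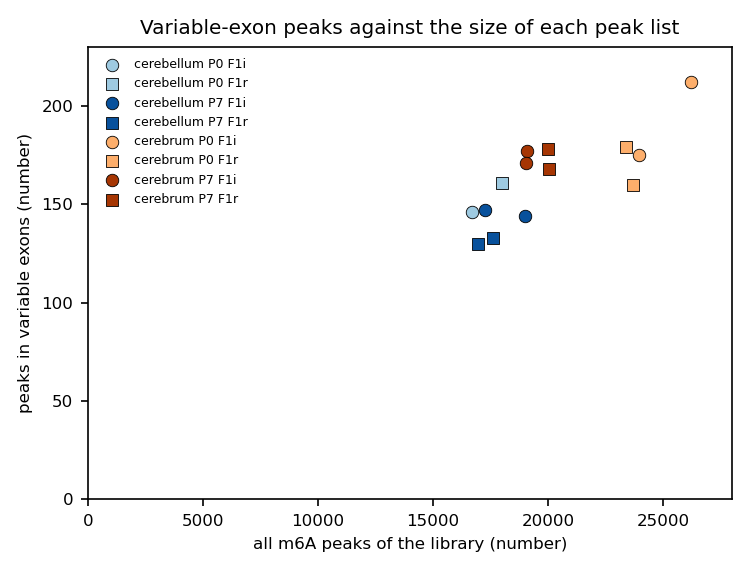
Peaks in the variable exons of all members (vertical axis, number) against all peaks of the library (horizontal axis, number), 1 symbol per library, coloured by tissue and age, circles for F1i and squares for F1r. Libraries with longer lists had more variable-exon peaks, from 130 of 16965 to 212 of 26208.

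In cerebrum the number of variable-exon peaks differed between ages by −8 (P7 minus P0, pooled SD between libraries 15.9), which was not tested. As a share of the list it was 0.745% ± 0.0564 at P0 and 0.888% ± 0.0373 at P7 (SD, n = 4 each). The share was higher in all 4 P7 libraries, 0.838% to 0.927%, than in the 4 P0 libraries, 0.676% to 0.809%, so count and share pointed in opposite directions. The count rested on the P0 female F1i library, the one with 212 peaks, and without it the difference was 2.17. Between crosses the 7 matched pairs gave F1r minus F1i differences of 15 in P0 cerebellum, −17 and −11 in P7 cerebellum, −33 and −15 in P0 cerebrum and 1 and −3 in P7 cerebrum. Their mean was −9, with an SD of 15.2 between pairs, and was not tested.

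By member, 44 of the 57 had a higher and 11 a lower mean number of peaks in cerebrum. Of the 6261 genes with a peak in all libraries, 44.5% were higher, a smaller share than among the members. Only 13.7% of genes with any peak reached the members' median total of peaks, however. Neither this nor the longer cerebrum lists were taken into account here. The numbers of 2 members, 3.57% of the 56 with any peak, did not overlap between tissues with more in cerebrum, against 3.41% of all genes with a peak. Pcdhac1 had 1 to 2 peaks per cerebellum library and 3 to 4 per cerebrum library. Pcdhb15 had 0 to 3 and 4 to 5. Without the P0 cerebellum F1r library 6 members had numbers that did not overlap, and without the P7 cerebellum or the P0 cerebrum male F1r library 4. The members with more peaks in all cerebellum libraries were 0, against 1.28% of all genes. Pcdhgc3 went in that direction with 3 to 5 peaks in cerebellum and 2 to 3 in cerebrum, but its numbers overlapped. Between ages in cerebrum, Pcdha8 had more peaks at P7, 2 to 3 at P0 and 4 in each P7 library, where 1.41% of all genes had numbers that did not overlap in that direction. Pcdhgb1 (3 to 4 at P0, 1 to 2 at P7) and Pcdhga5 (3 in each P0 library, 2 in each P7 library) had more at P0, beside 4.6% of all genes.

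The constant exons of the alpha and gamma clusters differed. Alpha constant exon 3, the last exon (37184946 to 37187661, 2716 nt), had 2 to 3 summits in each cerebellum library and 2 to 5 in each cerebrum library. The peaks of its regions cannot be assigned to single members, since all 14 alpha members share the exon, and it holds their stop codons 309 nt from its start and, for the alternative ending annotated in 5 members, 599 nt from its start. The strongest region (37185635 to 37186171, summit 852 nt from the exon start) lay past both stop codons, in the 3′UTR, and was called in all libraries. Its fold was 6.25 and 8.69 in P0 cerebellum, 7.16, 5.12, 5.66 and 4.30 in P7 cerebellum, 18.9, 22.6, 19.1 and 26.3 in P0 cerebrum and 11.5, 12.7, 13.2 and 15.1 in P7 cerebrum. All cerebrum libraries stood above all cerebellum libraries, and P0 above P7 in cerebrum. Relative to the median region it was higher in cerebrum by 0.57 ± 0.14 on the log2 scale (SE, limma adjusted p = 0.00107), and by pileup scaled for depth the difference was 0.26 and did not pass (limma adjusted p = 0.175). The region near the exon start (37184961 to 37185270, coding) had its summits at different places in the tissues. They lay 226 to 274 nt from the exon start in cerebellum and 75 to 95 nt in cerebrum, so its folds do not compare the same position. The fold of this region was 2.63 to 4.16 in cerebellum and 4.13 to 5.72 in cerebrum, with a log2 difference of −0.14 (limma adjusted p = 0.360) relative to the median region. Its direction depended on the scale, with 0.69 without centring (limma adjusted p = 7.42e-05) and −0.60 by pileup (limma adjusted p = 0.00318). A further region of the 3′UTR (37186282 to 37186590) was called in all 4 P0 cerebrum libraries and in 0 of the other 10.

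Alpha constant exon 1 (37156155 to 37156213, 59 nt) had 0 peaks. A region reaching into alpha constant exon 2 (37159265 to 37159353, 89 nt) was called in 7 of 8 cerebrum and 0 of 6 cerebellum libraries (Fisher's exact test, adjusted p = 0.0483). The constant exons of the gamma cluster had none: 37825021 to 37825079 (59 nt), 37833265 to 37833353 (89 nt) and the last exon, 37839903 to 37841873 (1971 nt, stop codon 225 nt from its start), held 0 summits in the 14 lists used here, and 0 peaks overlapped them by even 1 nt. The last gamma exon is shared by 21 members, of which each had peaks in its variable exon in all 14 libraries. Among 5738 genes with several exons and an exonic peak in all libraries, 9.31% had 0 summits in the last exon, and among the 1359 of these with a last exon of 1500 to 2500 nt, 4.42%. The motif GGAC, the commonest core of the m6A consensus, occurred 10 times in the last gamma exon and 5 times in the last alpha exon, or 5.07 and 1.84 per kb, on the transcribed strand. The gamma value is above the median of 3.68 per kb for last exons of that length class, and 75.8% of them had at most as many per kb. Motif matches describe the sequence and are not methylation sites. From the end of the Pcdhgc5 variable exon to the end of the cluster (37822135 to 37841873) the lists used here held 0 peaks on either strand, so the 0 was not limited to the constant exons, and whether peaks of this stretch are missing from these lists could not be told.

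**Figure D3:**
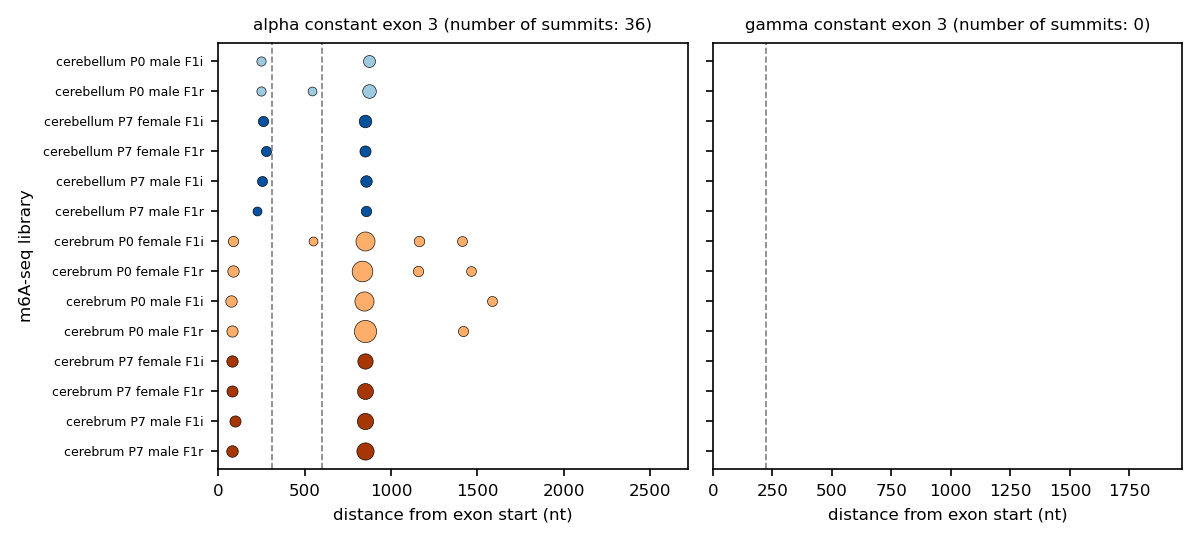
Peak summits along the last constant exon of the alpha cluster (left) and of the gamma cluster (right), by distance from the exon start in nt (horizontal) and library (vertical, coloured by tissue and age), with circle area growing with fold and dashed lines at the stop codons. The alpha exon shows summits before the first and past the second stop codon in all libraries, and the gamma exon shows none.

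Along the variable exons most peaks lay in the coding part, which is most of the exon in alpha and gamma members. It is 2388 of 2489 nt in Pcdha1 and 2424 of 2545 nt in Pcdhga5, but 2403 of 7138 nt in Pcdhb19. Of 2281 summits, 96.4% lay in the coding part (99.4% in alpha, 94.6% in beta and 96.5% in gamma). Of 3 equal stretches of the coding part the first held 30.8%, the middle one 29.3% and the last 39.9%. The 10795 summits of other coding exons of 2000 to 3000 nt were spread 33.7%, 31.5% and 34.9%. The strongest summit, taken as the median position over libraries, was in the last of the 3 stretches in 38 of 56 members (67.9%) and in 51.1% of 227 other long exons with a peak in all libraries. This was 19 of 21 in the gamma cluster, 10 of 14 in the alpha cluster and 9 of 21 in the beta cluster, so the beta cluster did not share the position. In 32 members (57.1%), with 15 of the 18 gamma A and B members among them, the strongest summit lay 1500 to 2000 nt from the start codon. Of the other long exons, 30.4% had it in that band. Those exons were chosen by length and need not hold a start codon, so the shares may not measure the same distance. The band was chosen after the positions were seen. In Pcdhgc4 the strongest summit stayed between 1595 and 1600 nt in all 14 libraries, and in 10 members it moved by less than 50 nt between libraries. In the last 200 nt of the coding part lay 3.93% of alpha, 15.2% of beta and 9.15% of gamma summits, where that window makes up 8.32% of all variable coding parts and held 9.45% of the summits of other long exons. Beta members end their coding sequence in this exon, whereas alpha and gamma members go on into the constant exons.

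**Figure D4:**
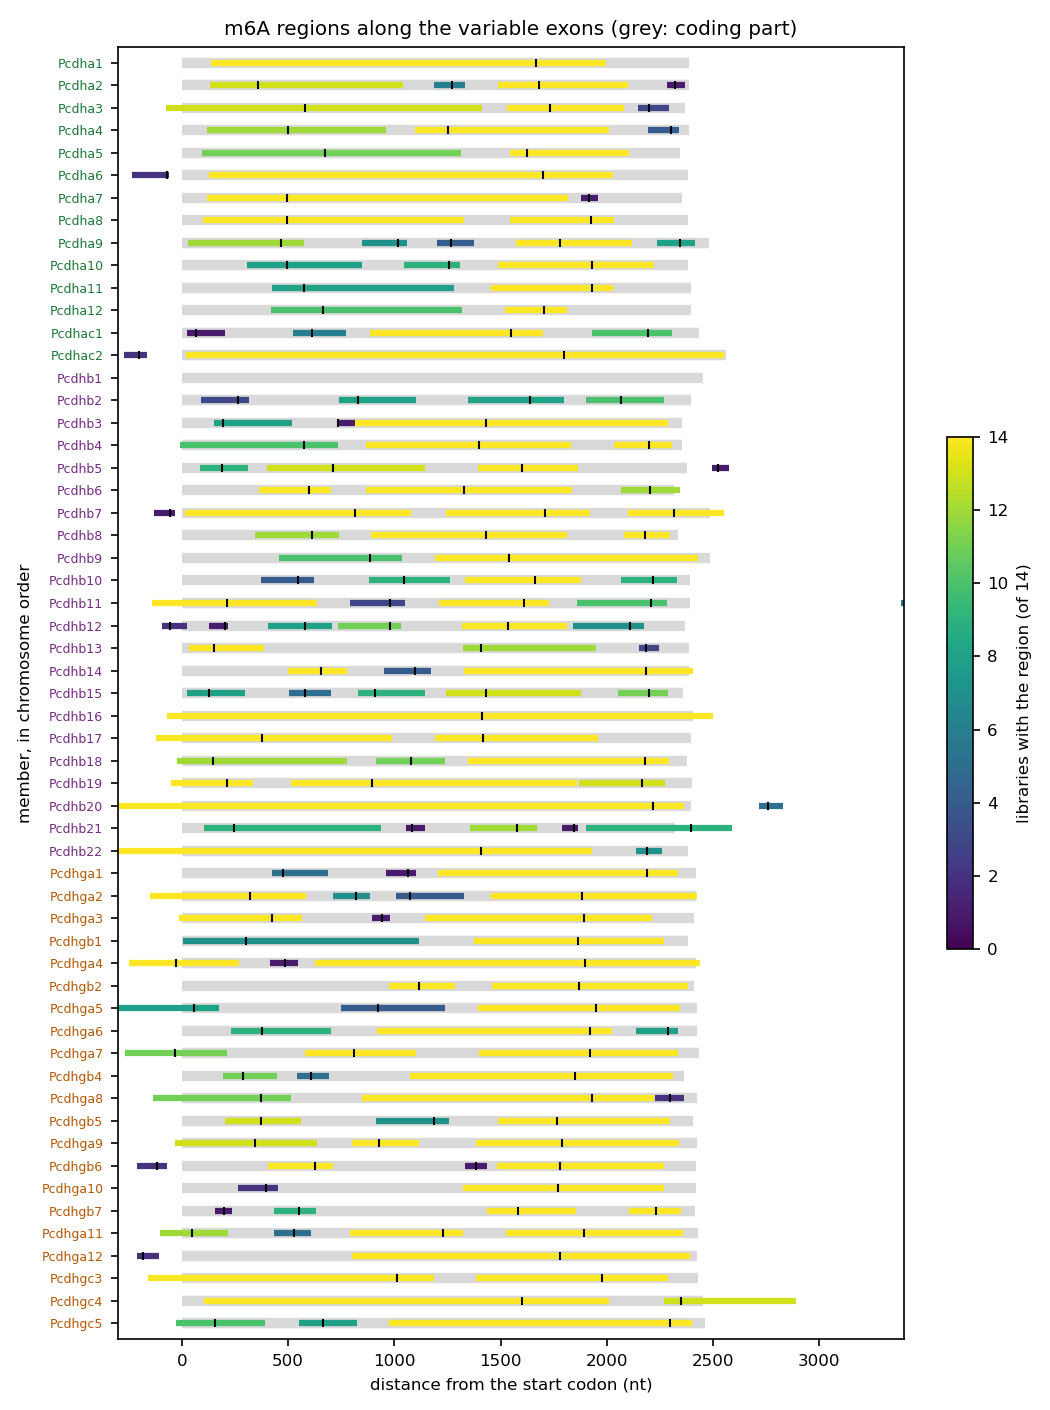
Regions of merged peaks along the variable exon of each member (rows, in chromosome order), by distance from the start codon in nt, coloured by how many of the 14 libraries had the region, with grey bars for the coding part and black ticks at the strongest summit. Regions beyond the axis ends are not drawn, and the brightest regions of most gamma members lie at 1500 to 2300 nt.

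The motif GGAC was searched on the transcribed strand with its A within 25 nt of a summit. It was found for 52.1% of the variable-exon summits (46.3% to 58.4% by library), where 27.2% of all positions of the variable coding parts lie that close to one, and for 49.0% of 115372 coding summits of all other genes. The share was 54.8% in alpha, 46.4% in beta and 56.8% in gamma summits. Variable coding parts, 2316 to 2562 nt long, held a median of 6.04 GGAC per kb (2.89 to 9.70). Other coding exons of 2000 to 3000 nt held a median of 4.13, and 19.0% of them reached the median of the variable parts. The lowest count was in a gamma and the highest in an alpha member, and Pcdhb1, without a peak, had 3.26 per kb. Among the 441 other long exons 58.5% to 69.2% had a peak in a library, whereas 93.0% to 98.2% of the variable parts did. Among the 326 other long exons with a peak in any library the share was 79.1% to 93.6%. The variable parts held 2.23 to 3.53 peaks per exon and library, all other long exons 1.5 to 1.95 and those with any peak 2.03 to 2.64. The median over members was 2.71, beside 2.86 for the other long exons with a peak in all libraries.

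Members are close in sequence, and an aligner that reports 1 place per read can move reads between them. Exact repeats of at least 75 nt in another member covered 7.47% of the variable exons, 17.4% in alpha (up to 34.4% in Pcdha7), 5.37% in beta and 4.64% in gamma, and 11.8% of the summits lay in them. C-type members had none. Without these stretches the variable exons of a mean of 54.9 members had a peak in a cerebrum library.

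Where members differed between tissues was in single regions. Overlapping peaks of all lists were merged into 33937 regions, of which 175 had their strongest summit in a member's exons, 170 variable and 5 constant. Of these 75 (42.9%) were called in all libraries, beside 27.2% of all regions. The other 100 were tested for presence by tissue with Fisher's exact test, adjusted over 24722 regions. More often called in cerebrum were 16, or 16%, beside 7.78% of all regions tested, and more often in cerebellum 1, or 1%, beside 1.87%. The 16 were 4 of 25 tested in alpha, 7 of 45 in beta and 5 of 30 in gamma. Which regions passed depended on the settings. With all lists at equal size 5 passed in all, and with a region counted only where the peaks of a library covered at least 50% of it 14 passed, and under either setting 3 of the 17 were among them. Without the 2 P7 cerebrum F1r libraries 8 passed. Leaving out any 1 of 5 cerebellum libraries, the P0 F1i library or a P7 library, left 7 to 9.

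Those called in 0 of 6 cerebellum and 8 of 8 cerebrum libraries (Fisher's exact test, adjusted p = 0.0066 each) lay in Pcdha9 (37000117 to 37000296), Pcdha11 (37011281 to 37012140), Pcdhb2 (37295714 to 37296080), Pcdhb14 (37455992 to 37456351), Pcdhb15 (37473744 to 37474014), Pcdhga5 (37693781 to 37694677) and Pcdhgc5 (37820227 to 37820498). These were weak to moderate peaks. In Pcdha11 the fold was 10.1, 7.83, 8.24 and 13.3 at P0 and 9.54, 8.88, 8.71 and 8.75 at P7. In Pcdhga5, around the start codon, it was 24.7, 18.6, 15.01 and 18.1 at P0 and 6.59, 7.90, 6.42 and 5.58 at P7, so the region was called at both ages and stood higher in every P0 library. In Pcdhgc5 it was 10.2, 12.1, 8.34 and 12.5 at P0 and 9.79, 10.6, 11.6 and 8.42 at P7, without a split by age. The Pcdhb14 region lay in the long untranslated end of that gene, 8333 nt from its start codon. A further 7 regions were called in 1 of 6 and 8 of 8 libraries (adjusted p = 0.0397 each by Fisher's exact test), in Pcdha10, Pcdhb10, Pcdhb15, Pcdhb21 (2 regions), Pcdhga6 and Pcdhgb7. The Pcdhga2 region (37669816 to 37669993) was called in 0 of 6 and 7 of 8 (adjusted p = 0.0483, Fisher's exact test). The single region more often called in cerebellum was in the 3′ end of Pcdhb20 past its coding part (37507141 to 37507250), with a fold of 6.92 and 9.30 at P0 and 6.33, 5.24 and 6.61 in 3 of the 4 P7 libraries and no call in cerebrum (Fisher's exact test, adjusted p = 0.0397).

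Between ages in cerebrum, 4 against 4 libraries cannot pass an adjusted test of presence, so exclusive regions were counted. Of 53 member regions called in some but not all cerebrum libraries, 5 (9.43%) were called in all 4 P0 and 0 P7 libraries, beside 8.58% of all such regions. They lay in Pcdha4 (36954959 to 36955106), the 3′UTR of alpha constant exon 3, Pcdhb14 (37448793 to 37449016), Pcdhgb1 (37680463 to 37681575) and Pcdhga5 (37695252 to 37695740). In Pcdha4 the fold was 7.40, 8.68, 9.73 and 8.15 at P0. That in Pcdhgb1, at 10.1, 10.4, 8.20 and 9.65 at P0, was also called in 3 cerebellum libraries, 2 at P0 and 1 at P7, and the other 4 were in 0 cerebellum libraries. The opposite pattern, P7 alone, was found for 0 member regions and 0.889% of all regions. P0 cerebrum lists were the longest, and with lists of equal size 1 region was exclusive to P0, while without the 2 P7 F1r libraries there were 8. Between crosses, regions called in only the F1r or only the F1i library in at least 5 of 7 pairs numbered 0 among the members, beside 0.0485% and 0.0404% of all regions.

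The strength of the 75 regions called everywhere was compared on the log2 scale of the fold of the strongest peak, centred on each library's median over the 9215 regions called in all libraries, with limma. A merged region can span much of an exon, so its strongest peak need not lie at the same position in every library. Without centring the median region was higher in cerebrum by 0.88, so centred values are changes relative to that. In cerebrum 21 member regions (28%) were stronger, beside 32.7% of all regions, and 20 (26.7%) were weaker, that is stronger in cerebellum, beside 27.4%. The median difference was 0.05 for the members and 0.05 for all regions. By depth-scaled pileup, in contrast, 42 were stronger in cerebrum and 9 in cerebellum, beside 3067 and 3300 of all 9215 regions. The median was 0.43 beside −0.05 for all regions, so the split among members depended on the scale.

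Single members differed more. The largest difference was in Pcdhgb5 (37732640 to 37733451, near 1764 nt). Its fold was 21.2 and 25.5 in P0 cerebellum, 34.5, 31.3, 25.1 and 25.5 in P7 cerebellum, 15.7, 17.1, 15.4 and 13.7 in P0 cerebrum and 10.6, 19.3, 11.1 and 11.7 in P7 cerebrum. Every cerebellum library stood above every cerebrum library, against the direction of most regions. The centred log2 difference of cerebrum minus cerebellum was −1.72 ± 0.14 (SE, limma adjusted p = 1.82e-09), and it was −0.89 without centring and −1.24 by pileup. The largest difference the other way was in Pcdha8 (36992566 to 36993797, near 497 nt), with a fold of 5.0 and 8.45 in P0 cerebellum, 7.88, 7.35, 7.03 and 5.65 in P7 cerebellum, 46.2, 37.6, 30.9 and 37.5 in P0 cerebrum and 25.3, 36.1, 22.8 and 32.3 in P7 cerebrum. All cerebrum values were at least 22.8 and all cerebellum values at most 8.45. The log2 difference was 1.46 ± 0.15 (SE, limma adjusted p = 2.84e-08). The region of Pcdha8 at 1924 nt differed by −0.29 and did not pass (limma adjusted p = 0.184), but by 0.54 without centring (limma adjusted p = 0.00885) and 0.85 by pileup (limma adjusted p = 0.000462). Pcdha8 is among the members with many repeated stretches, 24.3% of its exon.

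Relative to the median region, neighbours in the gamma cluster fell into blocks that leaned in opposite directions. On this scale 32.7% of all regions were stronger in cerebrum and 27.4% weaker. The genes from Pcdhga1 to Pcdhga8 (11 members, 16 regions) had 7 regions stronger in cerebrum and 1 weaker, with a median of 0.26 and 4 of 16 below 0. Of these, 16 were positive without centring and 15 by pileup. Without centring 7201 of all 9215 regions also passed as stronger in cerebrum. The genes that follow, Pcdhgb5 to Pcdhga12 (7 members, 11 regions), had 1 stronger and 7 weaker, with a median of −1.16 and 8 of 11 below 0. Without centring 6 of the 11 were negative and 5 positive, and by pileup 7 and 4. In the first block were Pcdhga4 (1.10), Pcdhga7 (1.07) and Pcdhga3 (0.95), and in the second, besides Pcdhgb5, were Pcdhga9 (−1.50 and −1.33), Pcdhgb6 (−1.31), Pcdhga10 (−1.19) and Pcdhga12 (−1.16), all past the test by limma. The fold of the Pcdhgb6 region was 34.6 and 31.3 in P0 cerebellum, 38.2, 34.9, 38.0 and 32.5 in P7 cerebellum, 29.8, 31.2, 26.9 and 29.4 in P0 cerebrum and 19.0, 22.1, 21.2 and 20.8 in P7 cerebrum. Every cerebellum value was above every cerebrum value. The division between the blocks was chosen after these values were seen and was not tested. Pcdhgb2 in the first block held the weaker region (−0.63, but 0.20 without centring and −0.02 by pileup) and Pcdhgb7 in the second the stronger one (0.47). Of the members outside the blocks, Pcdhgc3 passed at both its regions (0.41 and 0.32), and by pileup these differed by 0.28 and 0.05 and did not pass (limma adjusted p = 0.0858 and 0.724).

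**Figure D5:**
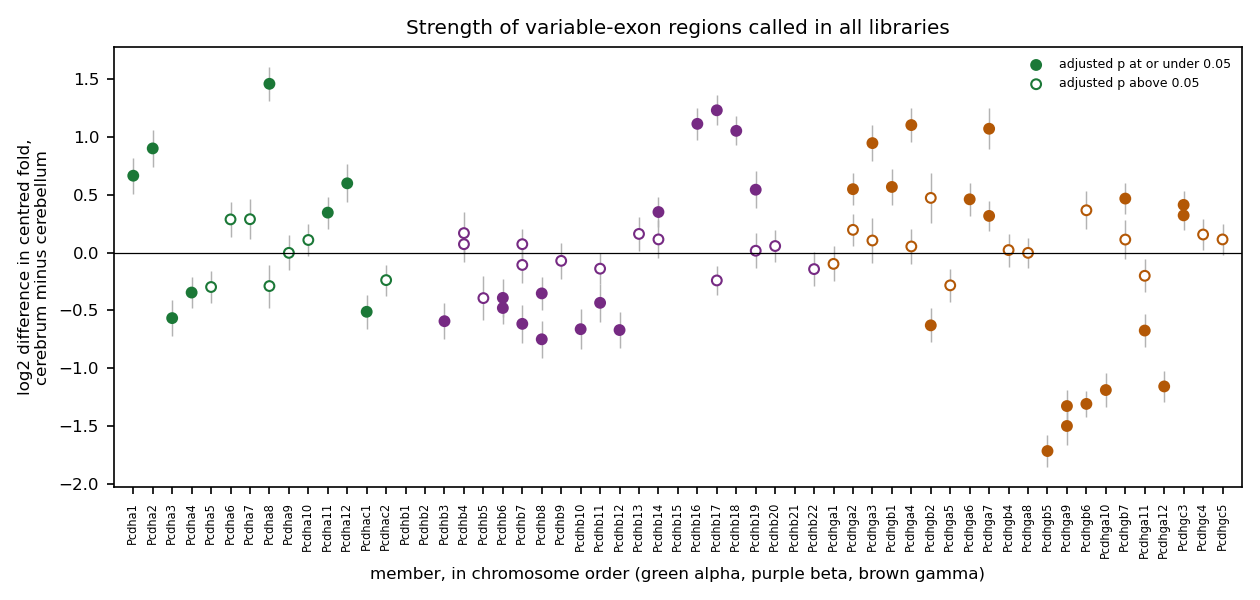
Centred log2 difference in fold, cerebrum minus cerebellum, of each variable-exon region called in all 14 libraries (vertical axis, points with 1 SE from limma), by member in chromosome order (horizontal axis, coloured by cluster), with filled points at an adjusted p of at most 0.05. Points above 0 cluster at Pcdhb16 to Pcdhb18 and in the first gamma genes, and those below −1 at Pcdhgb5 to Pcdhga12.

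In the beta cluster 5 of 27 regions were stronger in cerebrum and 9 in cerebellum, beside 32.7% and 27.4% of all regions. The neighbours Pcdhb16 (1.11), Pcdhb17 (1.23) and Pcdhb18 (1.05) held the largest differences. The Pcdhb16 region ran from −68 to 2498 nt, and the strongest summit of that member lay at 809 to 1442 nt by library. Its folds therefore need not compare the same position. For Pcdhb17 (37485040 to 37486147) the fold was 9.79 and 7.60 in P0 cerebellum, 13.4, 10.2, 7.93 and 9.73 in P7 cerebellum, 37.1, 43.8, 43.5 and 42.8 in P0 cerebrum and 34.3, 39.0, 37.3 and 35.6 in P7 cerebrum. The tissues were far apart, and the ages of cerebrum overlapped. The lowest value was that of Pcdhb8, −0.75 at its region near 2181 nt, but 0.08 without centring. The 9 regions were stronger in cerebellum only relative to the median region: without centring 0 of the 27 beta regions were below 0, and by pileup 0 passed in that direction. In the alpha cluster 5 of 15 variable regions were stronger in cerebrum, among them Pcdha8, Pcdha2 (0.90) and Pcdha1 (0.67). Stronger in cerebellum were 3, among them Pcdha3 (−0.57) and Pcdhac1 (−0.51). These 3 also depended on the centring, since without it 0 of the 15 alpha variable regions were below 0 and by pileup 0 passed in that direction. Pcdha3 was at 0.26 without centring and 0.12 by pileup, and Pcdhac1, with more peaks in cerebrum, at 0.32 and 0.31.

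Few member regions passed the test of age in cerebrum. Of the 75 regions 2 were stronger at P7, beside 6.39% of all regions, and 2 at P0, beside 4.45%. Pcdhgc5 (37820648 to 37822075) had a fold of 12.1, 16.8, 11.95 and 12.8 at P0 and 18.9, 22.6, 20.8 and 21.1 at P7. All P7 values exceeded all P0 values, and the log2 difference of P7 minus P0 was 0.87 ± 0.17 (SE, limma adjusted p = 0.00142), or 1.15 by pileup. Its cerebellum values were 7.09 and 8.4 at P0 and 8.56 to 10.9 at P7. Pcdhgb7 (37753883 to 37754130) went the other way with 29.4, 27.8, 31.6 and 22.5 at P0 and 14.4, 13.1, 11.1 and 13.5 at P7, a difference of −0.87 ± 0.17 (limma adjusted p = 0.00193). Pcdhac2 (0.52, limma adjusted p = 0.0497) and Pcdhga4 (−0.66, limma adjusted p = 0.0262) passed as well, but neither passed without the 2 P7 cerebrum F1r libraries. In all, 2 regions passed without the P0 cerebrum female F1i or male F1r library or without any P7 cerebrum library but the female F1i one. By pileup 17 member regions passed, 4 stronger at P7 and 13 at P0, beside 1799 and 1583 of all 9215 regions.

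The age change differed between cerebrum and cerebellum in 0 member regions by limma, beside 1.42% of all regions. At an unadjusted p under 0.05 there were 9, and the lowest adjusted p was 0.106. By pileup 11 passed, 8 with a positive and 3 with a negative difference, beside 1007 and 750 of all 9215 regions. Without the P7 cerebellum female F1i library 1 passed by fold. F1r and F1i libraries differed in 0 member regions and 0% of all regions by limma with the matched pair as a block. At an unadjusted p under 0.05 there were 3 member regions, and the lowest adjusted p was 0.815.

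Other gene lists were set beside the clusters. All 12 non-clustered protocadherins, which lie elsewhere in the genome and are expressed from single genes, had an exonic peak, 10 of them in all libraries. Of these Pcdh11x was called more often in cerebrum, with a peak in 1 of 6 cerebellum libraries and 8 of 8 cerebrum libraries (Fisher's exact test, adjusted p = 0.0345). Among 12 regulators of the clusters, including the chromatin-loop factor Ctcf, the cohesin loader Nipbl and the silencer Smchd1, 7 had a peak and 0 passed the Fisher's exact test, with 1 at an unadjusted p under 0.05 (Rad21, a cohesin subunit, 0 of 6 and 6 of 8 libraries, adjusted p = 0.0751). The cohesin genes Smc1a, Smc3, Stag1 and Stag2 and the methyltransferase Dnmt3b, which methylates variable promoters, were at 0. Of 18 partners and signalling genes, which include the kinases Ptk2, Ptk2b and Fyn and the WAVE complex, 14 had a peak. Rac1, a small GTPase, was called in 0 of 6 and 8 of 8 libraries (Fisher's exact test, adjusted p = 0.00618), 0 genes were called more often in cerebellum, and Cyfip1, Nckap1, Abi1 and Rhoa were at 0.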

How the data were processed

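Per the labels the RNA was poly(A) RNA, whereas the study's methods speak of mRNA or ribo-depleted RNA and do not say which library had which. It was fragmented, tagged with barcoded adapters, pooled and put through 2 rounds of m6A IP. The authors removed identifiers with fastp 0.21.0, aligned with HISAT2 2.1.0 to N-masked mm10, removed duplicates with gencore, divided reads by strand and called peaks per library with MACS2 2.1.2 and an 80-nt extension, without pooling replicates. The control of each call is not given in the sources used here. The deposited ratio is the fold of pileup over local background at the summit, and the −log10 p and −log10 q are the authors' values from MACS2. No read counts or totals were used, so absolute depth is unknown. The inputs among the 28 samples were not analysed here. Relative depth came from the commonest background of each list, and a pileup divided by it is the depth-scaled pileup. The fold and p of the authors gave a whole-number pileup (within 0.05) for 99.9% to 100% of peaks.

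Groups came from the sample labels. Members and lists were chosen with earlier results of these data known. Exons came from GENCODE vM21 on GRCm38 and positions are 1-based mm10. A variable exon is the exon bases of 1 member alone. Peaks overlapping by at least 1 nt on a strand were merged into regions. Presence was tested with two-sided Fisher's exact tests and strength with limma 3.58.1 (R 4.3.3) over 4 groups of tissue and age, both with Benjamini-Hochberg adjustment over all features at 0.05. Python 3.11.15, numpy 2.4.6, pandas 2.3.3 and scipy 1.17.1 were used, and scripts were tested on simulated data. Named with values were constant exon regions, the 8 members with a peak in the most libraries (ties by percentile), those with 0 peaks, up to 15 per test past the threshold, exclusive members and the 5 C-type members. Alternatives were a −log10 q of at least 5, equal list size, a stricter overlap, no exact copies, no centring, pileup, regions called in at least 12 libraries, the pair as a block, leaving out libraries, and, chosen after seeing the data, the tests on numbers of peaks, the list share and both strands. Single values of some marker genes are not reported here.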

Additional observations from a re-analysis of the deposited data

Results flagged for a closer look

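Of 57 groups of values examined for a sample far from the others, 1 held one, where chance gives about 1 in 20 groups. In P7 cerebellum the variable-exon peaks of the clustered protocadherins made up 0.852% of the list of the female F1i library, and 0.756% to 0.766% of the lists of the other 3 libraries. That library had 147 such peaks, beside 130 to 144 in the others, on a list of 17250 peaks.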

How the results depend on the processing

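For members with a peak, cerebrum minus cerebellum was 1.17 members, 2.67 at a −log10 q of at least 5 and 2.54 without exact copies. P7 minus P0 in cerebrum was 0, 0.5 at equal list size and −0.75 without exact copies. F1r minus F1i was 0.143, −0.143 without exact copies and −0.167 to 0.333 with each library left out. For variable-exon peaks the tissue difference of 34 was 8.71 at equal list size and −0.000157 percentage points as a share. The age difference of −8 was 10.8 at equal list size, 0.143 percentage points as a share and −15.2 to 2.17 with each library left out. Regions differing in presence numbered 17, 5 at equal list size, 14 with the stricter overlap, 20 at a −log10 q of at least 5, 8 without the 2 P7 cerebrum F1r libraries and 7 to 19 with each library left out, each of 5 cerebellum libraries (both P7 F1i, both P7 F1r and the P0 F1i library) bringing it to 7 to 9. Of the 17, 14 no longer passed at equal list size and 14 with the stricter overlap, each keeping 3. Regions exclusive to P0 cerebrum numbered 5, 1 at equal list size and 8 without those 2 libraries. Members whose numbers of peaks did not overlap were 2, 4 at a −log10 q of at least 5, 1 at equal list size and 2 to 6 with each library left out. Regions differing in strength by tissue numbered 41, 66 without centring (60 stronger in cerebrum and 6 in cerebellum, beside 7201 and 353 of all 9215 regions) and 33 to 46 with each library left out. By age they numbered 4, 13 without centring, 17 by pileup, 2 without those 2 libraries and 2 to 5 with each library left out. By the difference of the age change between tissues they numbered 0, 11 by pileup, 1 among regions called in at least 12 libraries and 0 to 1 with each library left out. The Pcdhb8 region changed from −0.75 to 0.081 without centring. With the matched pair as a random block (correlation −0.00353) the counts by tissue, age and their interaction were 41, 4 and 0, and without the block the cross comparison gave 0. Paired libraries did not deviate together, with correlations of −0.378 to −0.0527 outside P0 cerebellum, where 2 libraries force −1. Leaving out a P0 cerebellum library leaves 1 that is assumed to vary like the others. The cause of these changes was not tested. Of single-region results 555 were unchanged in call and direction, 111 no longer passed and 1 reversed.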
